A study of Mus musculus with 8 samples.

Results

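The genes described here encode the receptors for GABA and glycine, the proteins that anchor these receptors at synapses, and the transporters that clear both transmitters or set the chloride gradient on which they act. They were chosen by gene name from a list of 28 genes. All 28 were found among the 33971 genes of the deposited table, and 26 of them had enough counts to be tested. The list does not hold every gene of these families, and subunits or transporters outside it were not analysed here.

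GABA and glycine are the main inhibitory transmitters of the adult nervous system. Ionotropic GABA-A receptors are pentamers of subunits from the alpha, beta, gamma, delta, epsilon, theta and rho families, glycine receptors are pentamers of alpha and beta subunits, and both pass chloride. The GABA-B receptor is a G protein-coupled heterodimer. In the embryonic brain, immature neurons hold much chloride because import by NKCC1 prevails over extrusion by KCC2. Both transmitters can therefore depolarize them, and the balance shifts as neurons mature.

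Whole brains were taken from E14.5 wild-type (WT) mouse embryos, and their poly-A RNA was sequenced in bulk. The dams, WT females mated with WT males, received a choline-deficient diet (CDD, 4 brains) or a normal chow diet (ND, 4 brains). The methods start the diets on the mating day, whereas a legend of the same study starts the CDD before mating. Embryo sex and the number of dams or litters are not given in the sources used here, so p-values measure the spread between these brains, which may share a dam.

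Library totals were between 31770217 and 43121170 counts on genes. Of 19367 genes tested, 1710 (8.83%) differed between the diets when compared by the quasi-likelihood test of edgeR, at a threshold of 0.05 after Benjamini-Hochberg adjustment over all genes tested. The tested genes include all 18 markers of postmitotic neurons that were listed to check the tissue. One library stands apart from the others by its Hox genes. CDD replicate 2 held 4858 counts of 17 Hox genes (141 CPM), which mark caudal hindbrain and spinal cord, and the other 7 brains held between 3 and 95. Results that move with this brain are therefore also given without it. Over the counts of all genes, CDD replicate 4 lay farther from each remaining brain than CDD replicate 2 did. CPM is the number of counts scaled to a library of 1000000 counts, with library sizes adjusted by TMM. Fold changes are given as log2 of CDD over ND with their standard error (SE), and "called" means an adjusted p-value under 0.05 in that test.

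Of the 26 genes tested, 5 were called lower in CDD brains, namely *Gabra5*, *Gabrb1*, *Gabrg1*, *Gabbr2* and *Slc12a5*, and 0 were called higher. Among all genes tested, 4.59% were called lower and 4.24% higher. The log2 fold changes of the 5 called genes were between -0.47 and -0.22, which is a level in CDD brains between 0.72 and 0.857 of that in ND brains. At an unadjusted p-value under 0.05 in the same edgeR test, 8 genes were lower (12.1% of all genes tested) and 2 were higher (11.8% of all genes tested), the latter being *Gabrq* and *Slc12a2*. The lower ones were the 5 called genes and *Gabrg3*, *Glra2* and *Glrb*. Every CDD brain lay below every ND brain for 4 genes, where 7.39% of all genes tested did so, and all CDD brains lay above all ND brains for 1 gene, where 7.65% did so. The log2 fold change was below 0 in 19 of the 26 genes, against 50.9% of all genes tested. The median log2 fold change was -0.12 over the 26 genes and -0.00 over all genes tested. In bulk RNA, fewer cells of a type and less RNA per cell cannot be told apart, which applies to every difference given here.

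**Figure D1:**
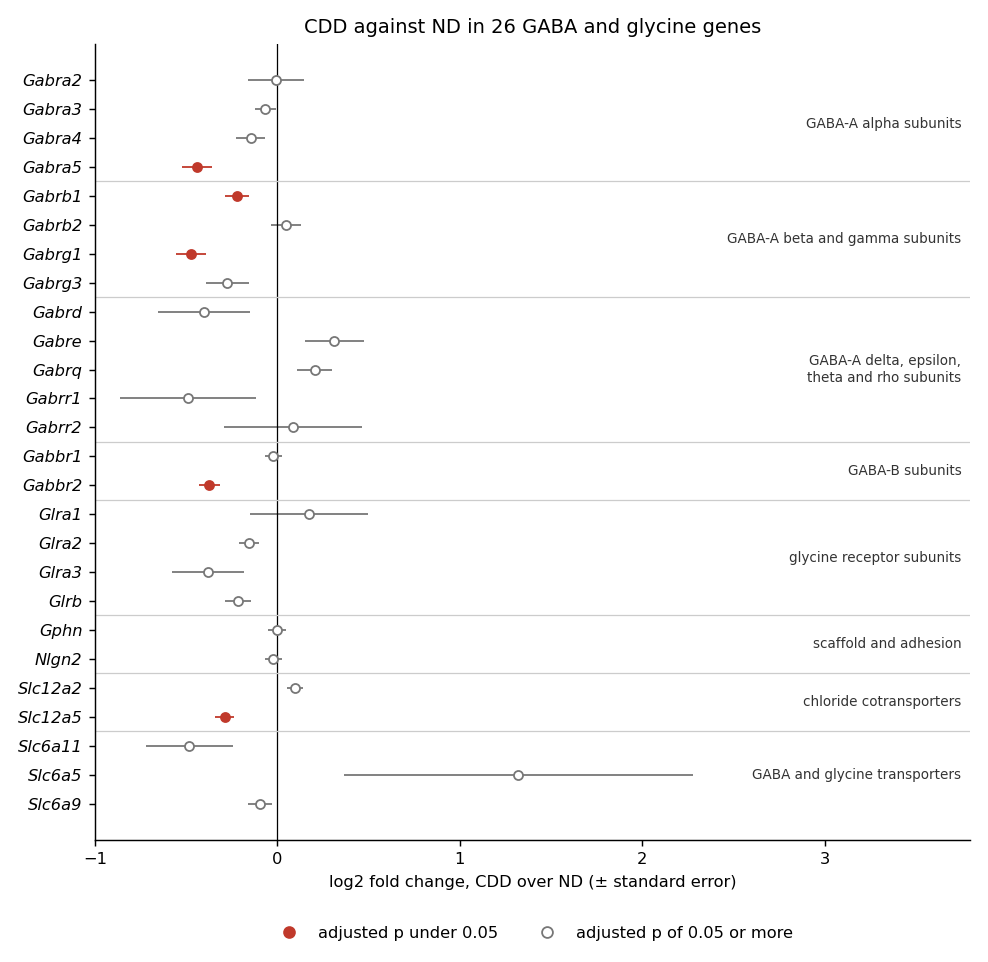
The horizontal axis is the log2 fold change of CDD over ND (4 brains per diet) with its standard error, for the 26 tested genes grouped by role. Filled red points are the 5 called genes, all left of 0 between -0.47 and -0.22. The point farthest to the right is *Slc6a5* at 1.32, with a standard error of 0.956.

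**Figure D2:**
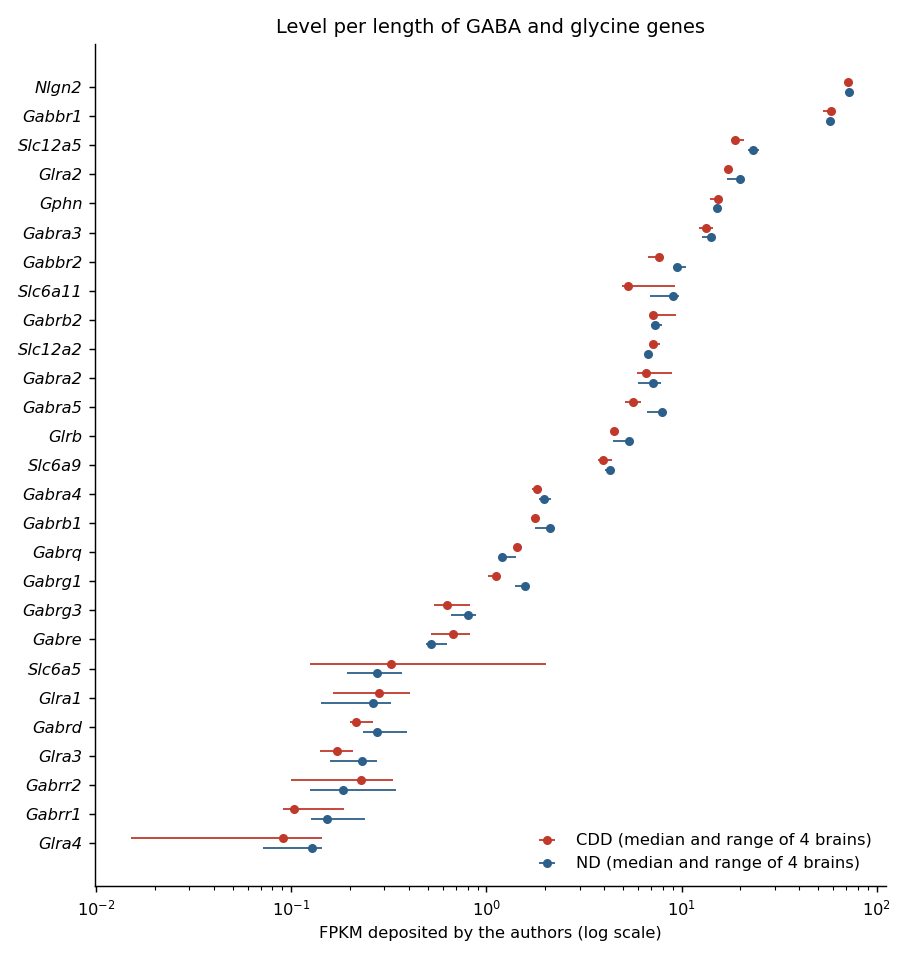
The horizontal axis is the deposited FPKM on a log scale, a level per length, with the median as a point and the range of the 4 brains of each diet as a line. *Gabra6*, listed at 0 in 6 of 8 brains, is left out. Levels run from about 70 FPKM for *Nlgn2* to under 0.2 FPKM for *Glra4* and *Gabrr1*, and the CDD and ND ranges do not meet for *Slc12a5*, *Gabbr2*, *Gabra5* and *Gabrg1*, nor, by a narrow gap, for *Slc12a2*.

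Levels per length differed widely among the genes. On the deposited FPKM scale, the highest medians over the 8 brains were those of *Nlgn2* (71.8 FPKM), *Gabbr1* (57.7 FPKM) and *Slc12a5* (21.5 FPKM). *Glra2* (17.7 FPKM), *Gphn* (15.3 FPKM) and *Gabra3* (13.9 FPKM) followed, with ranges over the brains that overlapped between *Glra2* and *Slc12a5* but not between *Gabbr1* and *Nlgn2*. Of the called genes, *Gabra5* (6.41 FPKM) and *Gabbr2* (8.43 FPKM) lay in the middle of the order, and *Gabrb1* (1.80 FPKM) and *Gabrg1* (1.28 FPKM) lower. *Gabrd*, *Gabrr1*, *Gabrr2*, *Glra1*, *Glra3*, *Glra4* and *Slc6a5* had medians under 0.3 FPKM, and the ranges of neighbours in this order overlapped.

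The starts of 4 of the called genes are shown because they set genes that were lower in the same brains side by side. Promoter windows of RefSeq (assembly GRCm38.p6) matched 25 of the 28 genes by symbol, with 33 windows in all, and the 250 bases before each start were searched. The bases printed below run 5′ to 3′ toward the start and stop at the first base annotated as an exon in GENCODE M21. Capitals mark the GC box (GGGCGG or its reverse complement). The windows are those of *Gabrg1* (chr5:70842618-70842867, minus strand, 250 bases), *Gabra5* (chr7:57510060-57510309, minus strand, 250 bases), the downstream start of *Slc12a5* (chr2:164967738-164967982, plus strand, 245 bases) and *Gabbr2* (chr4:46991874-46991964, minus strand, 91 bases).
Gabrg1: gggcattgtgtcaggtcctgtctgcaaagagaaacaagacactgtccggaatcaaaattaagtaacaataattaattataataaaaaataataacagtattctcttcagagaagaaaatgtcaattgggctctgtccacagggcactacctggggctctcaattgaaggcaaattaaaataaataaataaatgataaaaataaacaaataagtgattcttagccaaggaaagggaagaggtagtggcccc
Gabra5: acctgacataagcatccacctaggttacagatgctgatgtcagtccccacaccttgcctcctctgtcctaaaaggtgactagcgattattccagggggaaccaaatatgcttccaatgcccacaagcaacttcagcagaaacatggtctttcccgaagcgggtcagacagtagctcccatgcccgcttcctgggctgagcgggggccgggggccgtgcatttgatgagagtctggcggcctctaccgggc
Slc12a5, downstream start: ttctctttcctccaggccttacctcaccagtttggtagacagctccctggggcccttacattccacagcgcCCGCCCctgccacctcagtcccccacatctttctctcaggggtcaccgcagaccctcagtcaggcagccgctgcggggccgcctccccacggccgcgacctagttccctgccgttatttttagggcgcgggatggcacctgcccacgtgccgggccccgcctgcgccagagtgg
Gabbr2: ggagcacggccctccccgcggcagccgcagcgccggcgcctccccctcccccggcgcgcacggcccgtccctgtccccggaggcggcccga

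Base composition differed among these windows. G and C made up 35.6% of the 250 bases before the *Gabrg1* start, 56.4% before *Gabra5*, 67.2% before the downstream start of *Slc12a5* (61.2% before the upstream one) and 80.8% before *Gabbr2*, against a median of 52.4% over 32851 windows of all genes. A GC box was found, on either strand, in 17 of the 33 member windows and in 32.7% of all windows. It occurred once before the downstream *Slc12a5* start and at 2 places in the *Gabbr2* window, where both lie in the annotated exon and are therefore not among the printed bases. It was not found before the upstream *Slc12a5* start, nor in the *Gabrg1* and *Gabra5* windows. The letters TATAAA were in 4 of the 33 member windows (12.4% of all windows), CAGCTG in 2 (13%), CACGTG in 1 (6.02%), and TGACGTCA (1.55%) and TTCAGCACC (0.301%) in 0. None of these motifs overlaps another by its letters. No motif of this list was found before the starts of all 4 genes.

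Many of these subunit genes lie in clusters, here given on GRCm38 by GENCODE M21. *Gabrg1*, *Gabra2*, *Gabra4* and *Gabrb1* stand in this order on chr5:70751047-72149037, *Gabrg3* and *Gabra5* on chr7:56716465-57510059, and *Gabre*, *Gabra3* and *Gabrq* on chrX:72255999-72842602. The estimated fold changes varied within a cluster, and whether members of a cluster differ from each other was not tested. Their SEs are given below. In the chromosome 5 cluster, the log2 fold change was -0.47 for *Gabrg1*, -0.01 for *Gabra2*, -0.15 for *Gabra4* and -0.22 for *Gabrb1*. On chromosome 7 it was -0.44 for *Gabra5* and -0.27 for *Gabrg3*. On the X chromosome it was 0.31 for *Gabre*, -0.07 for *Gabra3* and 0.20 for *Gabrq*.

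Alpha subunits form the GABA binding site of the GABA-A receptor together with beta subunits. *Gabra5* (ENSMUSG00000055078, chr7:57407672-57510059 on GRCm38) encodes the alpha5 subunit, known in the adult mainly from extrasynaptic receptors of the hippocampus. It measured 15.4, 18.5, 18.3 and 15.3 CPM in CDD replicates 1 to 4, and 23.5, 19.9, 24.5 and 23.7 CPM in ND replicates 1 to 4. Every CDD brain lay below every ND brain, with ND replicate 2 nearest to them. The CDD mean was 16.9 ± 1.74 CPM (SD, n = 4), and the ND mean was 22.9 ± 2.08 CPM (SD, n = 4). *Gabra5* fell by 0.44 on the log2 scale (SE 0.081, adjusted p = 0.0034 by edgeR's quasi-likelihood method). Of its 2974 exonic bases, 148 (4.98%) are shared with a gene on the opposite strand, *Gm9962*, and whether counting used strand is not given in the sources used here.

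The other alpha subunits were not called. *Gabra3*, the alpha subunit with the highest level per length among those listed, lay between 48.7 and 58.0 CPM over the 8 brains, with a log2 fold change of -0.07 (SE 0.058). *Gabra2*, a synaptic alpha subunit of the forebrain, ranged from 45.6 to 68.0 CPM and had its highest value in CDD replicate 4. Its log2 fold change was -0.01 (SE 0.15), and -0.14 without CDD replicate 4, and the groups overlapped. *Gabra4*, an extrasynaptic subunit of the adult forebrain, had a log2 fold change of -0.15 (SE 0.078, adjusted p = 0.265 in edgeR's test). *Gabra6*, which marks mature cerebellar granule cells, had 3 counts in ND replicate 1, 3 in ND replicate 4 and 0 in the other brains, and was not tested.

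**Figure D3:**
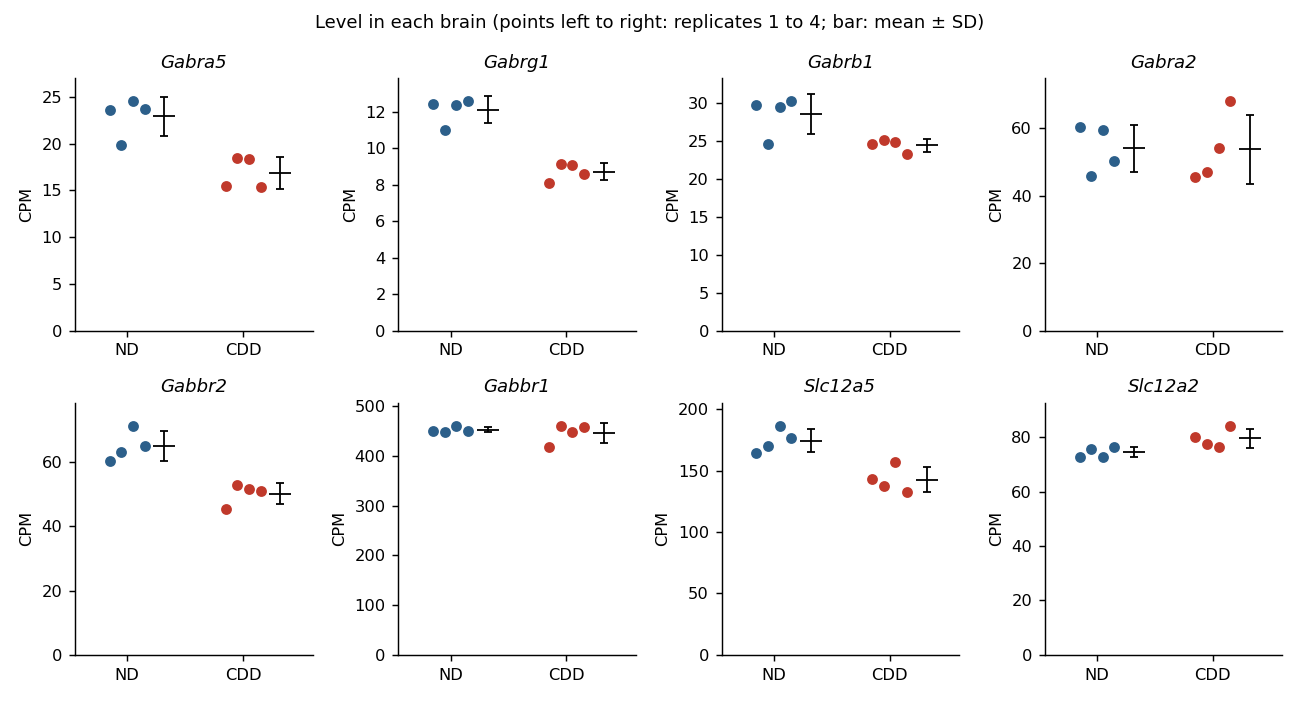
The vertical axes are CPM on scales starting at 0, and each point is a brain (replicates 1 to 4 from left to right) with the mean ± SD of 4 brains beside it. The CDD and ND points do not overlap for *Gabra5*, *Gabrg1*, *Gabbr2* and *Slc12a5*, which were lower in CDD brains, nor for *Slc12a2*, which was at most 76.3 CPM in ND and at least 76.5 CPM in CDD brains. They overlap for *Gabrb1*, *Gabra2* and *Gabbr1*.

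Gamma subunits link GABA-A receptors to the synapse and shape their response to benzodiazepines. *Gabrg1* (ENSMUSG00000001260, chr5:70751047-70842617 on GRCm38) encodes the gamma1 subunit. Its level was 8.09, 9.13, 9.06 and 8.60 CPM in CDD replicates 1 to 4. In ND replicates 1 to 4 it was 12.5, 11.0, 12.4 and 12.6 CPM. The groups did not overlap, and the lowest ND brain was again replicate 2. *Gabrg1* fell by 0.47 on the log2 scale (SE 0.081, adjusted p = 0.0023 by edgeR's quasi-likelihood method), the largest fall among the called genes of this list. *Gabrg3*, the gamma3 subunit, measured 6.52 to 9.80 CPM in CDD and 7.93 to 10.6 CPM in ND brains. *Gabrg3* had a log2 fold change of -0.27 (SE 0.12, adjusted p = 0.168), and without CDD replicate 4, its highest CDD brain, it was -0.40 with an adjusted p of 0.0249 in the same edgeR test. That was the only call in 8 fits that left out a brain, and the adjusted p was 0.128 to 0.397 in the others.

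Beta subunits are needed for assembly and surface transport of the receptor. *Gabrb1* (ENSMUSG00000029212, chr5:71658113-72149037 on GRCm38), the beta1 subunit, measured 24.5, 25.1, 24.8 and 23.2 CPM in CDD replicates 1 to 4 and 29.7, 24.5, 29.4 and 30.2 CPM in ND replicates 1 to 4. ND replicate 2 lay among the CDD brains, so the groups overlapped. *Gabrb1* fell by 0.22 on the log2 scale (SE 0.068, adjusted p = 0.0473 in edgeR's test). This call was kept in 2 of the 8 fits that left out a brain, those without CDD replicate 3 and without ND replicate 2, and the adjusted p was between 0.0631 and 0.163 in the other 6, those without CDD replicates 1, 2 or 4 or ND replicates 1, 3 or 4. It shares 46 exonic bases with *Gabra4*, whose start faces it on the other strand. *Gabrb2*, the beta2 subunit, had a log2 fold change of 0.05 (SE 0.082), with 59.7 CPM in CDD replicate 4 and 44.6 to 50.7 CPM in the other 7 brains. Without CDD replicate 4 the log2 fold change of *Gabrb2* was -0.06.

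Of the subunits that replace gamma or form receptors of their own, 0 of 5 were called, where 8.83% of all genes tested were. Medians over the 8 brains were 1.40 FPKM for *Gabrq*, near the 1.28 FPKM of *Gabrg1*, and 0.571 FPKM or lower for the others. *Gabrq*, the theta subunit, measured 7.48 to 8.13 CPM in CDD and 6.32 to 7.69 CPM in ND brains. *Gabrq* had a log2 fold change of 0.20 (SE 0.097, adjusted p = 0.205 in edgeR's test). *Gabre*, the epsilon subunit, had a log2 fold change of 0.31 (SE 0.16, adjusted p = 0.251). *Gabre* and *Gabrq* lie on either side of *Gabra3* (-0.07) in the X chromosome cluster. Both had positive fold changes, and neither passed the test. *Gabrd*, the delta subunit of extrasynaptic receptors, was at 20 to 39 counts per brain. The rho subunits *Gabrr1* and *Gabrr2*, known from the retina, were at 7 to 19 and 7 to 25 counts per brain. *Gabrr1* had the lowest log2 fold change of the tested genes, -0.49 with an SE of 0.37, from 0.211, 0.261, 0.209 and 0.422 CPM in CDD replicates 1 to 4 and 0.322, 0.375, 0.289 and 0.551 CPM in ND replicates 1 to 4, and its groups overlapped.

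The GABA-B receptor needs both of its subunits, of which GABBR1 binds GABA and GABBR2 couples to the G protein. *Gabbr2* (ENSMUSG00000039809, chr4:46662305-46991873 on GRCm38) measured 45.3, 52.8, 51.7 and 50.9 CPM in CDD replicates 1 to 4. In ND replicates 1 to 4 it measured 60.5, 63.1, 71.3 and 65.0 CPM, all above the CDD brains. *Gabbr2* fell by 0.37 on the log2 scale (SE 0.058, adjusted p = 0.0013 by edgeR's quasi-likelihood method), the smallest adjusted p of the list. *Gabbr1* did not pass the test: it measured 418, 461, 448 and 457 CPM in CDD and 450, 449, 461 and 451 CPM in ND replicates 1 to 4, with a log2 fold change of -0.02 (SE 0.048, adjusted p = 0.838).

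The log2 ratio of *Gabbr2* to *Gabbr1* counts, which does not depend on library scaling, was chosen after both fold changes were seen and is given with no test. It was -3.21, -3.13, -3.12 and -3.17 in CDD replicates 1 to 4 and -2.90, -2.83, -2.69 and -2.79 in ND replicates 1 to 4. Every CDD brain lay below every ND brain, and the means differed by -0.35.

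Of the glycine receptor subunits, 0 of 4 tested were called, where 8.83% of all genes tested were. *Glra2*, the alpha2 subunit that prevails in the fetus, measured 52.8, 57.6, 54.5 and 53.9 CPM in CDD replicates 1 to 4 and 63.0, 54.1, 63.6 and 62.9 CPM in ND replicates 1 to 4. ND replicate 2 lay among the CDD brains. The log2 fold change of *Glra2* was -0.16 (SE 0.055, adjusted p = 0.0823 in edgeR's test), and without ND replicate 2 it was -0.21 (adjusted p = 0.0198). *Glrb*, the beta subunit that binds gephyrin, lay between 20.2 and 22.2 CPM in CDD brains. In ND brains it was at 20.9 CPM in replicate 2 and at 25.2 to 26.2 CPM in the others. Its log2 fold change was -0.22 (SE 0.072, adjusted p = 0.067), and without ND replicate 2 it was -0.28 (adjusted p = 0.0158). Both glycine receptor genes thus passed the threshold of the edgeR test in 1 of the 8 fits that left out a brain. In the other fits of this kind the adjusted p was 0.0784 to 0.264 for *Glra2* and 0.0686 to 0.216 for *Glrb*.

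*Glra1*, the alpha1 subunit that replaces alpha2 after birth, was near the limit of detection, with 0.543, 0.985, 0.395 and 0.814 CPM in CDD replicates 1 to 4 and 0.790, 0.656, 0.347 and 0.609 CPM in ND replicates 1 to 4. Its highest value was in CDD replicate 2, the brain with Hox counts. *Glra1* had a log2 fold change of 0.17 (SE 0.32), and -0.06 without CDD replicate 2. The log2 ratio of *Glra1* to *Glra2* counts averaged -6.41 ± 0.56 (SD, n = 4) under CDD, against -6.72 ± 0.56 (SD, n = 4) under ND (exact two-sided permutation test, p = 0.429, and 0.629 after Benjamini-Hochberg adjustment over 3 ratios). *Glra3*, the alpha3 subunit, had a log2 fold change of -0.38 (SE 0.20, adjusted p = 0.254 in edgeR's test) at 43 to 88 counts per brain. *Glra4* had 1 to 10 counts per brain and was not tested.

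The anchoring proteins showed narrow ranges over the brains. *Gphn*, which encodes gephyrin, the scaffold under inhibitory synapses, measured 52.8 to 59.3 CPM with a log2 fold change of -0.00 (SE 0.048). *Nlgn2*, the neuroligin of inhibitory synapses, measured 403 to 427 CPM with a log2 fold change of -0.02 (SE 0.046). Neither was called, and for both genes the groups overlapped.

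The 2 chloride cotransporters had fold changes of opposite sign. *Slc12a5* (ENSMUSG00000017740, chr2:164960802-164999731 on GRCm38) encodes KCC2, the potassium chloride cotransporter that extrudes chloride from maturing neurons. It measured 143, 138, 157 and 133 CPM in CDD replicates 1 to 4 and 164, 170, 186 and 176 CPM in ND replicates 1 to 4, without overlap. *Slc12a5* fell by 0.29 on the log2 scale (SE 0.052, adjusted p = 0.0032 by edgeR's quasi-likelihood method). *Slc12a2* (ENSMUSG00000024597) encodes NKCC1, the sodium potassium chloride cotransporter that loads chloride into cells, and is also expressed in progenitors and glia. It measured 80.2, 77.5, 76.5 and 84.2 CPM in CDD replicates 1 to 4 and 72.9, 75.6, 72.8 and 76.3 CPM in ND replicates 1 to 4. All CDD brains lay above all ND brains, but by as little as 76.5 against 76.3 CPM. The log2 fold change of *Slc12a2* was 0.10 (SE 0.044), and it did not pass the adjustment over all genes (adjusted p = 0.184 in edgeR's test).

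The log2 ratio of *Slc12a5* to *Slc12a2* counts was 0.83, 0.83, 1.04 and 0.66 in CDD replicates 1 to 4. In ND replicates 1 to 4 it was 1.17, 1.17, 1.36 and 1.21. The CDD mean was 0.84 ± 0.16 (SD, n = 4) and the ND mean 1.23 ± 0.09 (SD, n = 4), with the ratio lower in 4 of 4 CDD brains. This is a difference of -0.39, or a ratio in CDD brains of 0.765 of that in ND brains. The exact two-sided permutation test gave p = 0.0286, the smallest value that 4 against 4 brains allow, and 0.0857 after Benjamini-Hochberg adjustment over the 3 ratios tested, which fails the correction. Without any 1 brain the difference lay between -0.45 and -0.33. The 3 tested ratios were themselves chosen with earlier results of these data known. Counts of *Slc12a5* were above those of *Slc12a2* in every brain of both diets, and RNA counts do not measure chloride transport.

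**Figure D4:**
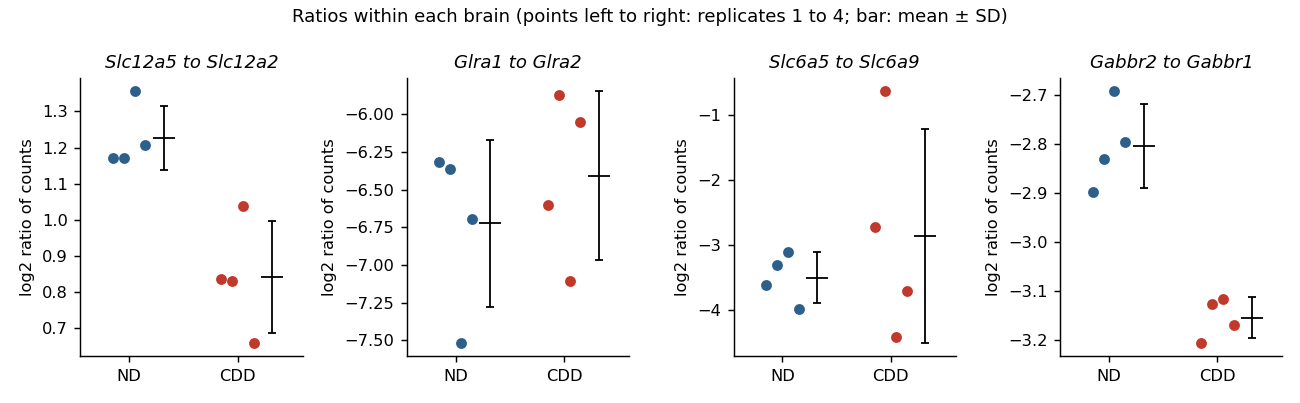
The vertical axes are log2 ratios of the counts of 2 genes within a brain, on scales that do not start at 0, and each point is a brain with the mean ± SD of 4 brains beside it. The ratios of *Slc12a5* to *Slc12a2* and of *Gabbr2* to *Gabbr1* are lower in all 4 CDD brains than in all 4 ND brains. Those of *Glra1* to *Glra2* and of *Slc6a5* to *Slc6a9* overlap between the diets, with CDD replicate 2 highest for both.

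The transmitter transporters were not called. *Slc6a11* encodes GAT3, a GABA transporter of astrocytes and their precursors. It measured 25.1, 47.0, 28.2 and 25.7 CPM in CDD replicates 1 to 4 and 46.5, 35.0, 49.2 and 45.4 CPM in ND replicates 1 to 4. CDD replicate 2 lay among the ND brains, while the other 3 CDD brains lay below all ND brains. The log2 fold change of *Slc6a11* was -0.48 (SE 0.24, adjusted p = 0.292 in edgeR's test) over all brains, and -0.74 (SE 0.099, adjusted p = 0.00197) without CDD replicate 2. That was the only call in 8 fits that left out a brain, and *Slc6a11* was called in 0 of the 11 other settings.

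*Slc6a5* encodes GlyT2, the glycine transporter of glycinergic neurons of the hindbrain and spinal cord. It measured 3.17, 14.7, 0.906 and 1.54 CPM in CDD replicates 1 to 4 and 1.84, 2.13, 2.69 and 1.39 CPM in ND replicates 1 to 4. CDD replicate 2 was far above the other brains, as it was for the summed Hox genes, and CDD replicate 1 was second for both. The log2 fold change of *Slc6a5*, 1.32 (SE 0.96, adjusted p = 0.474), was the highest of the list, and it was -0.13 (SE 0.39) without CDD replicate 2. The part of caudal tissue in these values was not tested.

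*Slc6a9* encodes GlyT1, a glycine transporter of glia and progenitors. It measured 20.8, 22.7, 19.3 and 20.0 CPM in CDD replicates 1 to 4 and 22.5, 20.9, 23.0 and 22.1 CPM in ND replicates 1 to 4, with a log2 fold change of -0.10 (SE 0.066, adjusted p = 0.399 in edgeR's test). Of its 5141 exonic bases, 1555 (30.2%) are shared with genes on the opposite strand, so its level is uncertain if counting ignored strand. The log2 ratio of *Slc6a5* to *Slc6a9* counts was -2.71, -0.63, -4.42 and -3.70 in CDD replicates 1 to 4 and -3.61, -3.30, -3.10 and -3.99 in ND replicates 1 to 4. The means differed by 0.63 (exact two-sided permutation test, p = 0.629, and 0.629 after adjustment over 3 ratios), and by -0.11 without CDD replicate 2.

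**Figure D5:**
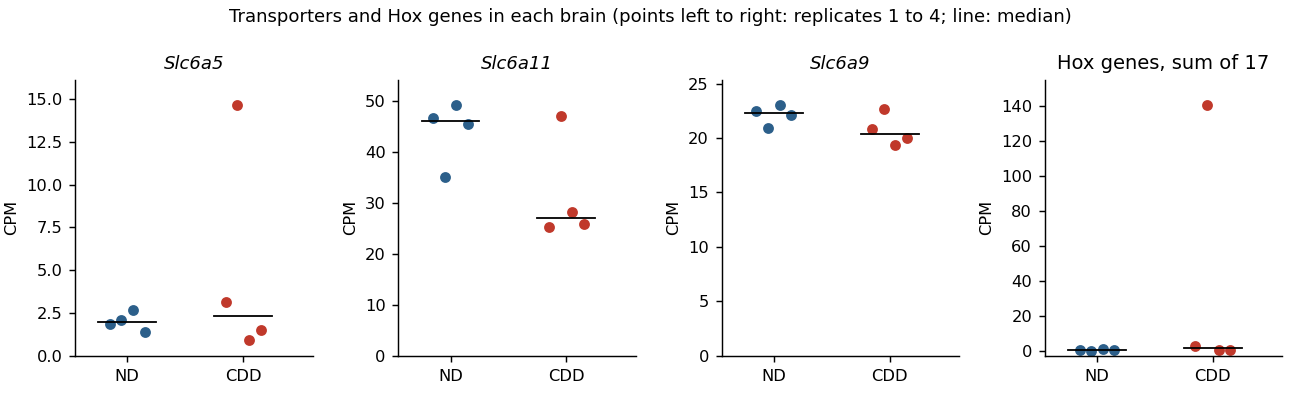
The vertical axes are CPM, each point is a brain (replicates 1 to 4 from left to right) and the line is the median of the 4 brains of a diet. CDD replicate 2 is highest for *Slc6a5* (14.7 CPM) and for the sum of 17 Hox genes (141 CPM), and lies among the ND brains for *Slc6a11* (47.0 CPM).

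Other genes of these pathways were read from 5 lists of 73 genes in all, none of which is among the 28. Of these, 71 were tested, and 6 were called higher and 7 lower in CDD brains, where 4.24% of all genes tested were called higher and 4.59% lower. The counts of each list below are to be read against these shares. In GABA synthesis, loading and breakdown, 1 of 14 genes was higher and 4 were lower. The enzymes that make GABA are encoded by *Gad1* and *Gad2*. *Gad2* rose by 0.16 on the log2 scale (SE 0.046, adjusted p = 0.0357 in edgeR's test), whereas *Gad1* had a log2 fold change of -0.11 (SE 0.041, adjusted p = 0.106). *Slc32a1*, the vesicular transporter that loads GABA and glycine into synaptic vesicles, fell by 0.19 (SE 0.048, adjusted p = 0.0183), from 57.6 ± 1.14 CPM (SD, n = 4) under ND to 50.5 ± 2.19 CPM (SD, n = 4) under CDD. *Slc38a3*, a glutamine transporter, fell by 0.22. *Slc6a13*, the GABA transporter GAT2, which meningeal fibroblasts also express, fell by 0.57 (SE 0.088, adjusted p = 0.0013). The list of meningeal markers, which holds *Slc6a13* as well, had 1 of 12 genes higher and 5 lower.

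In the list on assembly of inhibitory synapses and receptor trafficking, 0 of 22 genes were higher and 2 were lower. *Hap1*, a trafficking protein, fell by 0.21, and *Shisa7*, an auxiliary protein of GABA-A receptors, fell by 0.17. Among 11 auxiliary and effector genes of the GABA-B receptor, *Kctd12*, an auxiliary subunit of the receptor, fell by 0.24 (SE 0.053, adjusted p = 0.0109 in edgeR's test). *Kcnj5*, a subunit of potassium channels that the receptor opens, rose by 0.54 (SE 0.16, adjusted p = 0.0401). Both genes were thus called, in opposite directions.

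Of 17 further chloride cotransporter and kinase genes tested, 2 were higher and 0 were lower. *Slc12a7*, which encodes KCC4, another potassium chloride cotransporter, rose by 0.27 (SE 0.056, adjusted p = 0.0072 in edgeR's test), while *Slc12a5* fell. *Ckb*, the brain creatine kinase, rose by 0.18. Of 7 genes of glycine cleavage and synthesis tested, 2 were higher and 0 were lower. *Gldc*, the decarboxylase of the glycine cleavage system, rose by 0.35 (SE 0.069, adjusted p = 0.0047), and *Shmt1*, which interconverts serine and glycine, rose by 0.30.

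Markers of cell types were higher in some lists and lower in others. Of 17 neural progenitor markers, 9 were called higher and 0 lower in CDD brains (median log2 fold change 0.23), and their summed level was 2877 to 3225 CPM in CDD and 2507 to 2716 CPM in ND brains. Of 18 markers of postmitotic neurons, 0 were higher and 4 were lower (median -0.02), with sums of 10894 to 12136 CPM in CDD and 11519 to 12040 CPM in ND brains, which overlapped. Forebrain GABAergic neuron markers had 2 of 14 genes higher and 2 lower (median 0.03), and their sums overlapped too, at 589 to 686 CPM in CDD and 640 to 665 CPM in ND brains. Oligodendrocyte precursor markers had 0 of 9 genes higher and 3 lower (median -0.24), with sums of 149 to 165 CPM in CDD and 174 to 196 CPM in ND brains. The part of any of these cells in the falls of *Gabra5*, *Gabrb1*, *Gabrg1*, *Gabbr2* and *Slc12a5* was not tested.

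The remaining marker lists were of other cell types. Microglia and macrophage markers had 0 of 12 genes higher and 3 lower (median -0.20), with sums of 94.1 to 105 CPM in CDD and 104 to 123 CPM in ND brains. Endothelial markers had 0 of 12 higher and 1 lower (median -0.06), and their sums of 347 to 370 CPM in CDD lay below those of 372 to 387 CPM in ND brains. The meningeal markers had a median of -0.23, with sums of 537 to 593 CPM in CDD and 574 to 687 CPM in ND brains. Erythroid markers had 2 of 12 higher and 0 lower (median -0.04), with sums of 766 to 1428 CPM in CDD and 828 to 2997 CPM in ND brains. Choroid plexus markers had 1 of 12 higher and 0 lower (median 0.11), with sums of 275 to 606 CPM in CDD and 374 to 411 CPM in ND brains. Eye and retina markers had 2 of 7 tested higher and 0 lower (median 0.07), with sums of 58.2 to 65.3 CPM in CDD and 51.6 to 58.5 CPM in ND brains. The part of these cells in the differences of the receptor and transporter genes was not tested either. Of 22 markers of caudal hindbrain and spinal cord, 4 passed the filter on low counts and 0 were called, with sums of 4.81 to 179 CPM in CDD and 5.31 to 8.25 CPM in ND brains. Without CDD replicate 2, the brain that set the upper end of that range, the called genes among the 26 were *Gabra5*, *Gabrg1*, *Gabbr2*, *Slc12a5* and *Slc6a11*.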

How the data were processed

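Poly-A RNA of 8 whole brains (4 CDD, 4 ND), grouped by maternal diet from the labels, was compared. Per the labels' processing notes the authors used HISAT2 2.0.5, featureCounts 1.5.0-p3 and DESeq2 1.20.0. The genome build, annotation and strand setting are not given in the sources used here. The authors deposited raw counts per gene, a signal (the count divided by a size factor per library) and FPKM made from it with a listed gene length, which equals the exonic length in GENCODE M21 for all 28 genes, while start and end equal those of M21 for 3. Deposited positions were therefore not used. The deposited log2 fold changes and p-values of the authors' own comparison, and 3 shorter lists drawn from it, were not used.

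Low-count genes were removed by edgeR 4.0.16 (filterByExpr), library sizes were scaled with TMM, and CDD was set against ND by the robust quasi-likelihood test of that package with a single diet term and Benjamini-Hochberg adjustment over 19367 genes. The test was first tried on simulated data. Library totals were between 31770217 and 43121170 counts, and the common biological coefficient of variation was 0.0814. Within a diet no pair of brains was within sampling noise (chi-square per degree of freedom at least 3.53). Over all pairs the highest value was 27.5, between CDD replicate 4 and ND replicate 3. For CDD replicate 2 the highest was 16.6, also with ND replicate 3. For count ratios, an exact two-sided permutation test over the brains was used, with Benjamini-Hochberg adjustment over 3 ratios. Counts of a list are descriptions, and no test of a list was made.

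The alternatives were DESeq2 1.42.0, RLE and upper-quartile normalization, limma-voom (limma 3.58.1), no filter on low counts, a minimum of 10 counts per brain, a block on replicate number, an offset for gene length (loess with a span of 0.3) without and with the block, an adjusted p-value under 0.01, the authors' FPKM on a log2 scale with a pseudocount of 1, a pseudocount of 0.5 for ratios, and each brain left out. The ratio of *Gabbr2* to *Gabbr1* was added after the data were seen.

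The 28 genes, the pathway and marker lists and the tests were chosen with earlier results of these data known. All 28 genes are named, with values in every brain for called genes, for those entering a tested ratio and for the highest and lowest fold change, and for *Gabbr1* and *Slc6a11*, which were added after their values were seen. Of the pathway lists, called genes and *Gad1*, *Gad2* and *Slc32a1* are named, except for 1 called gene that is not reported here. The software was R 4.3.3 and Python 3.11.15 with NumPy 2.4.6, pandas 2.3.3, matplotlib 3.10.9 and SciPy 1.17.1.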

Additional observations from a re-analysis of the deposited data

Results flagged for a closer look

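In 4 of 58 groups of 4 brains compared, 1 brain lay farther from the others than Dixon's 95% critical value for 4 samples allows, where chance gives about 1 in 20 groups (2.9 of 58). Of the 4, 3 concern ND replicate 2 as the lowest ND brain, on the log2 CPM scale: *Gabrb1* at 4.62 (24.5 CPM), *Gabrg1* at 3.46 (11.0 CPM) and *Glra2* at 5.76 (54.1 CPM). The fourth is *Gabrb2* in CDD replicate 4, the highest CDD brain, at 5.90 (59.7 CPM).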

How the results depend on the processing

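*Gabra5*, *Gabrg1*, *Gabbr2* and *Slc12a5* were called lower under each of the 11 other settings and in each of the 8 fits that left out a brain. *Gabrb1* lost its call with limma-voom (adjusted p = 0.0642), with an adjusted p-value under 0.01, with FPKM (limma, adjusted p = 0.182) and with the replicate block. *Gabrg3* gained one with the length offset and block (edgeR adjusted p = 0.0463) and *Glrb* with no filter on low counts (0.0371). Over all settings, 24 to 28 genes of the list were tested, and 4 to 7 were called lower and 0 higher. Among all genes tested, 2.4% to 12.7% were called in these settings, in either direction. The median log2 fold change of the list lay between -0.16 and -0.06.

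The number of genes called among all tested was 1710, and it was 477 at an adjusted p-value under 0.01 and 519 with FPKM. Leaving out a brain gave 471 (without ND replicate 3) to 2495 (without CDD replicate 3), with 688 without ND replicate 1 and 615 without ND replicate 4. The length offset gave 1203 genes higher and 870 lower, against 822 and 888.

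Leaving out a brain gave 4 to 7 called genes of the list, 4 to 7 lower and 0 higher, where 2.4% to 12.7% of all genes tested were called. The median was -0.16 to -0.09. The differences of the ratios were -0.45 to -0.33 (*Slc12a5* to *Slc12a2*), 0.05 to 0.55 (*Glra1* to *Glra2*) and -0.11 to 1.15 (*Slc6a5* to *Slc6a9*). Exact p-values there cannot pass the threshold, as the smallest is 0.0571.

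Whether replicate numbers pair the brains is not settled by these data. Deviations of same-numbered brains correlated at 0.24, -0.28, 0.23 and 0.41, and those of differently numbered brains at between -0.46 and 0.43. CDD replicates 1, 3 and 4 each correlated best with the ND brain of their number, and CDD replicate 2 did not. With the replicate block 1812 genes were called, 4 of them of this list, and *Gabrb1* had an adjusted p of 0.0549 in edgeR's test. Low counts limit *Gabrd*, *Gabrr1*, *Gabrr2*, *Glra1* and *Glra3*.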
